A study of Mus musculus with 26 samples.

Results

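The BCL2 family decides whether a cell lives or dies at its mitochondria. Survival proteins such as BCL2, BCL-XL (encoded by Bcl2l1), MCL1 and the A1 proteins (encoded by the Bcl2a1 copies) hold the pore formers BAX and BAK in check, and BH3-only proteins such as BIM (encoded by Bcl2l11) and BID release that hold when a cell is stressed or receives a death signal. Myeloid cells are known to depend on MCL1, and A1 is an inducible survival protein of blood cells. The 10 members described here were a fixed list of genes: the survival genes Bcl2, Bcl2l1, Mcl1, Bcl2a1a, Bcl2a1b and Bcl2a1d, the BH3-only genes Bcl2l11 and Bid, and the pore formers Bax and Bak1. All 10 were found by symbol and gene identifier among the 50104 genes listed for every cell type, and all 10 had enough reads to be tested in every comparison.

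In GRCm38, Bcl2 (ENSMUSG00000057329) lies at chr1:106538178-106714274, Bcl2l1 (ENSMUSG00000007659) at chr2:152780668-152831728 and Mcl1 (ENSMUSG00000038612) at chr3:95658788-95663176. The Bcl2a1 copies share chromosome 9, with Bcl2a1d (ENSMUSG00000099974) at chr9:88723285-88731914, Bcl2a1a (ENSMUSG00000102037) at chr9:88956900-88962419 and Bcl2a1b (ENSMUSG00000089929) at chr9:89199209-89207827. Bcl2l11 (ENSMUSG00000027381) lies at chr2:128126038-128162547, Bid (ENSMUSG00000004446) at chr6:120891930-120916853, Bax (ENSMUSG00000003873) at chr7:45461697-45466898 and Bak1 (ENSMUSG00000057789) at chr17:27019810-27029009. Reads were counted over exons.

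RNA was sequenced from cells sorted by flow cytometry from resting young adult female wild type (WT) mice and from mice that lack ACKR2 (ACKR2-/-), an atypical receptor that scavenges inflammatory CC chemokines. Monocytes from the bone marrow and small peritoneal macrophages (SPMs) had 4 WT and 4 ACKR2-/- samples each, every sample pooling cells of several mice, and MHCII negative lung macrophages had 5 of each genotype. WT mice were bought as C57BL/6J and ACKR2-/- mice were bred in house, so the genotypes were not littermates, and the deletion was carried in the germline rather than in 1 cell type. Cells were gated as CD45+ in all tissues, then as Ly6G- SiglecF- F4/80- CD11b+ Ly6C+ for monocytes, as F4/80 mid and MHCII positive for SPMs, and as Ly6G- SiglecF- Ly6C- CD11b+ F4/80+ MHCII negative for lung macrophages.

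Libraries held 12781144 to 35400034 counts assigned to genes. Levels below are CPM, the counts of a gene scaled to the size of its library times a TMM factor for its RNA make-up. They are on 1 scale for all 26 libraries, and CPM per kilobase of gene length is used where 1 gene is set beside another. The TMM factors raised SPM levels against those of the other cell types, so comparisons of cell types rest on them. Each cell type was sequenced and counted as a set of its own, so cell type and sequencing set cannot be told apart, and in these bulk samples fewer cells of a type and less RNA per cell cannot be told apart. Ackr2 had 5 to 9 reads in WT SPMs and 0 in ACKR2-/- SPMs, and at most 2 in any monocyte library. In the lung it had 469, 436, 150 and 372 reads in WT replicates 1 to 4 and 7 to 50 in the ACKR2-/- replicates, but 0 reads in the library labelled WT replicate 5, which went against its label. The defining markers followed the sorts, with Ly6c2 at 2450 to 5090 CPM in monocytes and the MHCII gene H2-Ab1 at 44900 to 66800 CPM in SPMs. H2-Ab1 was at 211 to 1410 CPM in 9 lung libraries and at 15800 CPM in WT lung replicate 3, against the MHCII negative sort. WT SPM replicate 1 also stood apart from its group, as described for the members below. Ly6c2 was at 684 and 1310 CPM in ACKR2-/- SPM replicates 1 and 4 and at 27.0 to 101 CPM in the other SPM libraries. In the same 2 libraries Marco was at 371 and 575 CPM, against 9.41 to 58.7 CPM in the other SPM libraries.

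The transcripts of the 3 Bcl2a1 copies are close to identical, so their sequences set what the counts can separate. Bases 1 to 60 of the coding sequence, counted from the start codon, are shown for each copy in GENCODE M21 (GRCm38), with capitals at the 6 positions where they are not all the same.
Bcl2a1a: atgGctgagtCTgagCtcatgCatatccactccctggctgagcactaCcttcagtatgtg
Bcl2a1b: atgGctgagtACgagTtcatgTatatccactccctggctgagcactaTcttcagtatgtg
Bcl2a1d: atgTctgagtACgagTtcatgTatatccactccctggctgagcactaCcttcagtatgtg

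Over the whole coding sequence of 519 bases the copies differed at 12 positions. Identity was 97.88% between Bcl2a1a and Bcl2a1b, 98.65% between Bcl2a1a and Bcl2a1d and 98.84% between Bcl2a1b and Bcl2a1d. Of all stretches of 150 bases, the length of 1 read of a pair, 71.8% in the Bcl2a1a transcript, 85.8% in Bcl2a1b and 69.7% in Bcl2a1d occurred in no other copy. The split of reads between the copies is therefore uncertain, and the sum of the 3 is given beside them. The fourth copy, Bcl2a1c, had 0 reads in monocytes, 2 in SPMs and 18 in lung macrophages.

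Promoter stretches of the copies are shown because the copies moved together. The first stretch below lies at chr9:88956786-88956865 on the plus strand, the next at chr9:89199095-89199174 on the plus strand and the last at chr9:88731905-88731984 on the minus strand (RefSeq, GRCm38.p6), each 80 bases long, with capitals on the motif GAGGAAGT. The motif holds the GGAA core that ETS factors such as PU.1 bind, and it was picked after the promoters had been read.
Bcl2a1a: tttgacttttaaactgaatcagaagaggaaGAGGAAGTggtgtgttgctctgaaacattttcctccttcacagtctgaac
Bcl2a1b: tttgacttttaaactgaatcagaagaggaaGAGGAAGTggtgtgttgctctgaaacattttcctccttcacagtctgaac
Bcl2a1d: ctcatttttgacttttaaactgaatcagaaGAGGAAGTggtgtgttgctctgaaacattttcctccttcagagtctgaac

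The Bcl2a1a and Bcl2a1b stretches were the same at all 80 bases, and the longest run shared by all 3 copies was 43 bases. The motif lay 104 bases before the start of Bcl2a1a and Bcl2a1d and 148 before that of Bcl2a1b. Searched on both strands, it was present in 3.2% of the 32851 promoter windows of 300 bases (250 before and 50 after the start). Among the 10 members, which had 13 windows, it was present in 4, the 3 copies and Bak1. All 10 members had a promoter window. The motif was picked after the promoters had been read, and the copies are close to identical. These numbers therefore do not measure an enrichment.

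The 10 members in all 26 libraries are plotted first. The Bcl2a1 copies stood far apart between monocytes and macrophages, Bak1 overlapped across all cell types, and the genotypes within a cell type mostly overlapped.

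**Figure D1:**
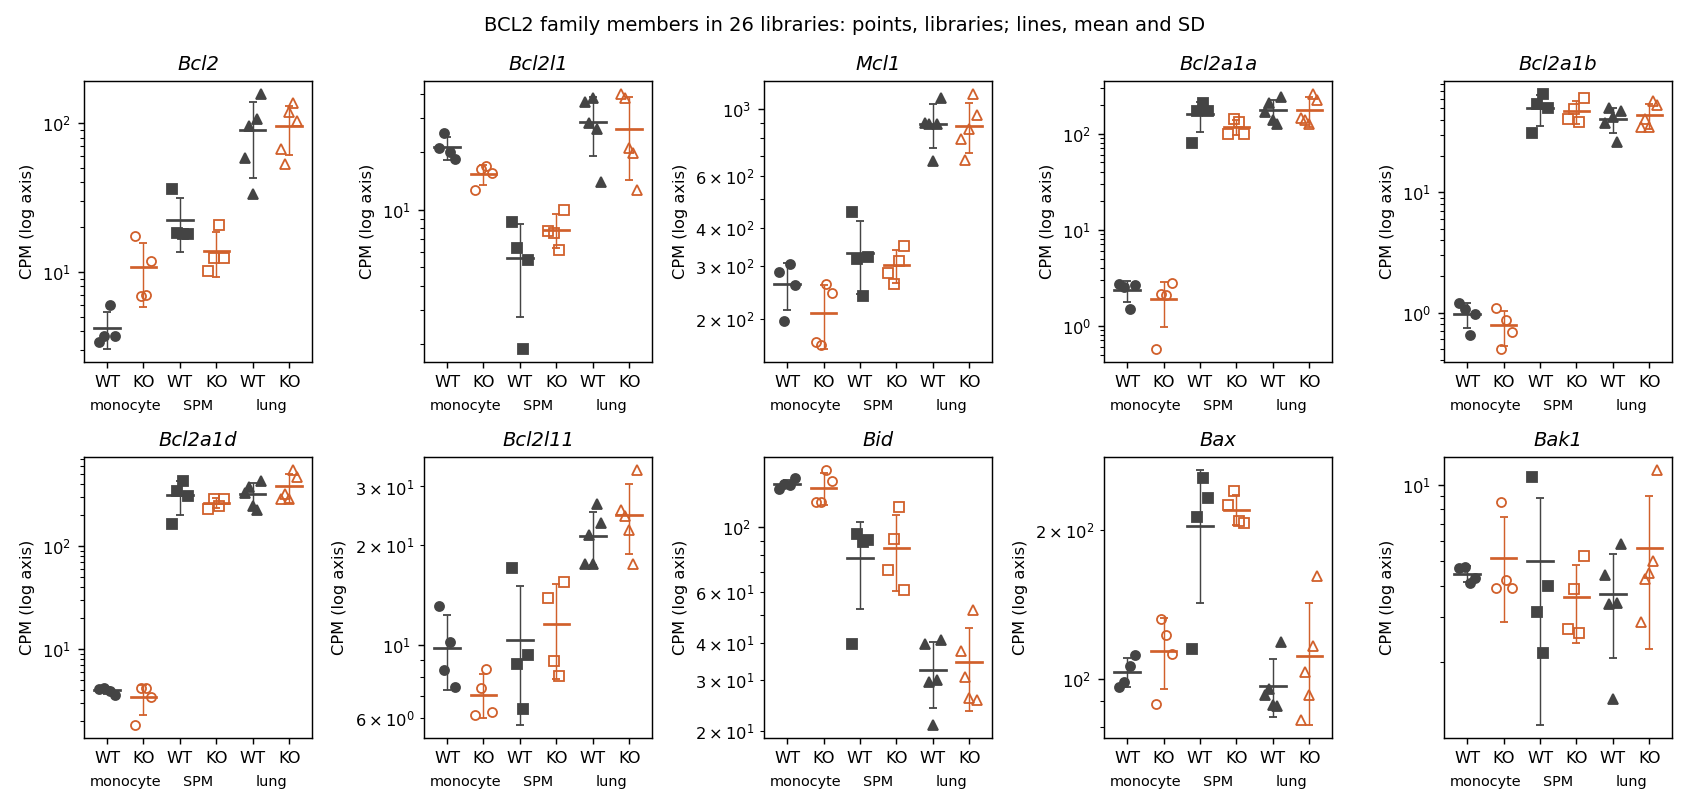
CPM (log axis) of each member in every library, by genotype (WT filled, ACKR2-/- open, marked KO) and cell type, with the mean and SD of each group. The Bcl2a1 copies sit at 0.494 to 4.22 CPM in monocytes and at 26.2 CPM or more in every macrophage library, and Bid falls from monocytes to SPMs to lung macrophages.

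The first question was how the survival genes differed between monocytes and the 2 macrophage types. A gene was called where edgeR's quasi-likelihood test, adjusted over all tested genes, gave a p below 0.05 and the log2 fold change lay beyond 0.5 in either direction. In WT mice 7 of the 10 members were called between SPMs and monocytes, where 41.9% of all 17792 tested genes were, with 5 higher and 2 lower in SPMs (21.8% and 20.1% of all genes). Between lung macrophages and monocytes 7 members were called against 63.8% of all genes, with 6 higher and 1 lower (39.5% and 24.4%). Between lung macrophages and SPMs 6 members were called against 62.3%, with 4 higher and 2 lower (39.1% and 23.2%). A count of 6 or 7 of 10 is therefore near the background for the lung comparisons. The median log2 fold change of the members was 0.67 between SPMs and monocytes (all tested genes 0), 1.44 between lung macrophages and monocytes (all tested genes 0.34) and 0.10 between lung macrophages and SPMs (all tested genes 0.41). The near-identical Bcl2a1 copies each count as a member here, and each was among those higher than in monocytes. They raised the medians against monocytes, and medians with the copies counted once were not computed. In ACKR2-/- mice 7, 8 and 6 members were called in the same comparisons, against 40.3%, 62% and 63.6% of all genes.

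The Bcl2a1 copies showed the largest differences of any member. Bcl2a1d was at 4.10, 4.21, 3.91 and 3.59 CPM in the 4 WT monocyte libraries. In WT SPMs it was at 163.7, 347.8, 433.3 and 310.0 CPM, and in WT lung macrophages at 325.3, 380.2, 247.2, 227.0 and 434.9 CPM. Every macrophage library was above every monocyte library, and the lowest SPM value belonged to replicate 1. Bcl2a1d was 79.3-fold higher in SPMs than in monocytes (log2 fold change 6.31, SE 0.35, adjusted p = 3.07e-13) and 81.6-fold higher in lung macrophages (log2 6.35, SE 0.35, adjusted p = 1.33e-13).

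Bcl2a1a was at 1.48 to 2.70 CPM in WT monocytes and at 79.7 to 210.0 CPM in WT SPMs. Its log2 fold change from monocytes was 6.08 (SE 0.42, adjusted p = 1.5e-11) in SPMs and 6.24 (SE 0.41, adjusted p = 3.14e-12) in lung macrophages. Bcl2a1b, which had the fewest reads of the 3 copies and shares exons with the readthrough gene Gm29094 on the same strand, was at 0.651 to 1.20 CPM in WT monocytes and at 31.2 to 66.1 CPM in WT SPMs. Its log2 fold change was 5.68 (SE 0.32) in SPMs and 5.39 (SE 0.31) in lung macrophages.

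Summed over the 3 copies, the mean was 7.26 ± 0.883 CPM (SD, n = 4) in WT monocytes, 522.4 ± 181.8 (SD, n = 4) in WT SPMs and 539.9 ± 142.1 (SD, n = 5) in WT lung macrophages. The sum was higher by 6.17 on the log2 scale in SPMs (SE 0.34) and by 6.22 in lung macrophages (SE 0.34). Between the 2 macrophage types the log2 difference of the sum was 0.05 with an SE of 0.26 (adjusted p = 0.886), and the same comparison gave 0.15 for Bcl2a1a, -0.30 for Bcl2a1b and 0.04 for Bcl2a1d, with none past the threshold. Bcl2a1d took the largest part of the reads in every library, with a median of 53.2% in monocytes, 60.5% in SPMs and 61.5% in lung macrophages. Bcl2a1b took a median of 12.8%, 9.87% and 7.32%. The monocyte libraries held only 86 to 173 reads of the 3 copies each, and their shares varied most (Bcl2a1b 7.19% to 31.4%).

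Mcl1, a survival gene that most blood cells need, was abundant in all 3 cell types. It was at 285.2, 196.0, 303.0 and 258.9 CPM in WT monocytes and at 453.8, 315.4, 237.5 and 321.5 CPM in WT SPMs, and these groups overlapped. In WT lung macrophages it was at 900.1, 890.6, 668.8, 893.7 and 1090.0 CPM, above every WT library of the other cell types. Mcl1 was 3.41-fold higher in lung macrophages than in monocytes (log2 1.77, SE 0.22, adjusted p = 1.5e-07) and 2.68-fold higher than in SPMs (log2 1.42, SE 0.22, adjusted p = 3.32e-06). Between SPMs and monocytes its log2 difference was 0.35 (SE 0.22, adjusted p = 0.217) in WT mice. With the scaling of all libraries by RLE size factors in place of TMM that value was 0.52 (adjusted p = 0.0467), and this scaling moved the median of all genes in this comparison by 0.164.

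Bcl2 itself was the lowest of the survival genes in WT monocytes per kilobase. Its 4 libraries held 3.40, 3.72, 5.99 and 3.72 CPM, of which replicate 3 lay apart. In WT SPMs it was at 18.2, 17.9 and 18.1 CPM in replicates 2 to 4 and at 35.9 CPM in replicate 1. In WT lung macrophages it spread from 33.4 CPM in replicate 3 through 58.4, 95.4 and 107.2 to 157.8 CPM in replicate 5. Every SPM library was above every monocyte library, while SPM replicate 1 at 35.9 CPM was above lung replicate 3. Bcl2 was 5.34-fold higher in SPMs than in monocytes (log2 2.42, SE 0.42, adjusted p = 3.72e-05), 21.4-fold higher in lung macrophages than in monocytes (log2 4.42, SE 0.44, adjusted p = 4.66e-09) and 4.01-fold higher in lung macrophages than in SPMs (log2 2.0, SE 0.39, adjusted p = 8.9e-05). Its exons overlap those of D630008O14Rik on the opposite strand.

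Bcl2l1, whose main product BCL-XL guards the outer mitochondrial membrane, ran the other way in SPMs. It was at 21.1, 25.3, 19.9 and 18.4 CPM in WT monocytes but at 8.63, 6.30, 1.87 and 5.49 CPM in WT SPMs, with no overlap. In WT lung macrophages it was at 36.7, 28.4, 38.5, 26.5 and 13.9 CPM, so that replicate 5 lay below all monocyte libraries. Bcl2l1 was 3.73-fold lower in SPMs than in monocytes (log2 -1.90, SE 0.37, adjusted p = 0.000135) and 5.08-fold higher in lung macrophages than in SPMs (log2 2.34, SE 0.36, adjusted p = 3.91e-06). Lung macrophages and monocytes did not differ beyond their spread in WT mice (log2 0.44, SE 0.33, adjusted p = 0.241).

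Per kilobase, the make-up of the survival genes was unlike between monocytes and macrophages. In WT monocytes Mcl1 took 84.4% ± 3.76 (SD, n = 4) of the summed CPM per kilobase of the 6 survival genes, the Bcl2a1 copies 9.82% ± 2.34, Bcl2l1 5.28% ± 1.55 and Bcl2 0.512% ± 0.118. In WT SPMs the Bcl2a1 copies took 84.1% ± 9.65 (SD, n = 4) and Mcl1 15.3% ± 9.18, and in WT lung macrophages the copies took 69.3% ± 4.48 (SD, n = 5) and Mcl1 28.8% ± 4.19. Bcl2 and Bcl2l1 each stayed at or below 1.06% on average in both macrophage types and genotypes. These shares use 1 length for each gene, the summed exons, which can be longer than the transcripts a cell makes.

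**Figure D2:**
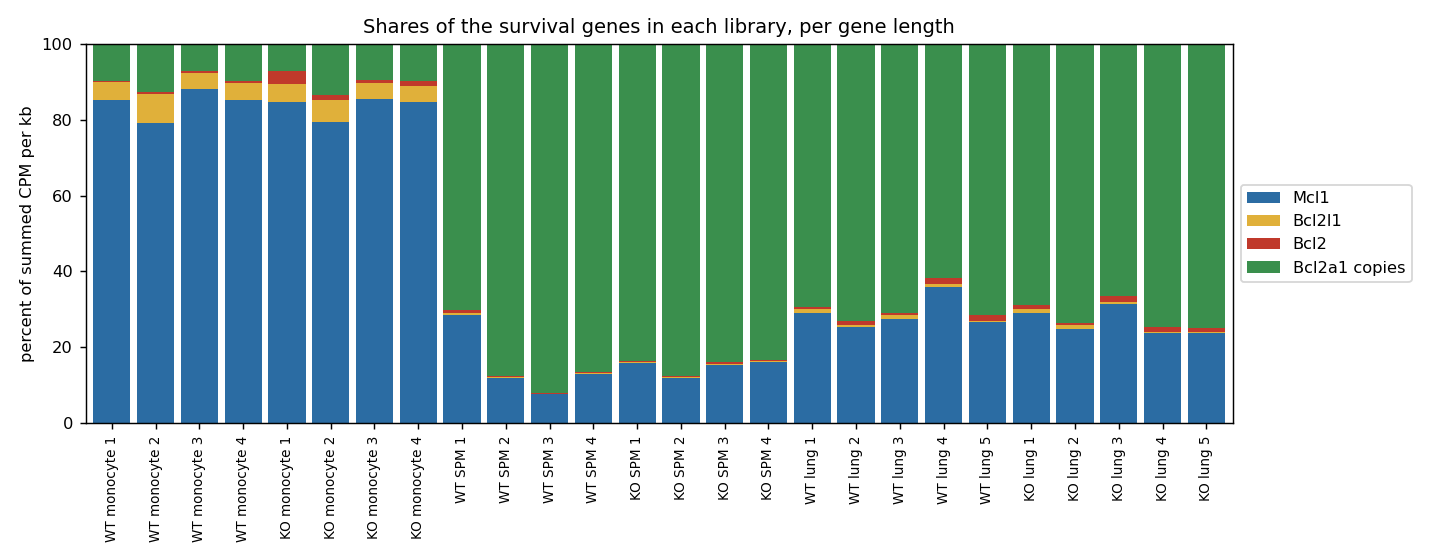
Stacked bars of each survival gene's percent of the summed CPM per kilobase in every library. Mcl1 holds 79.1% to 88.0% of the bar in the monocyte libraries, and the Bcl2a1 copies hold 70.1% to 92.1% in the SPM libraries and 61.7% to 75.0% in the lung libraries, WT and ACKR2-/- (KO) together.

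The sum of the survival genes was 89.99 ± 12.7 CPM per kilobase (SD, n = 4) in WT monocytes, 719.3 ± 187 in WT SPMs (SD, n = 4) and 915.4 ± 204 in WT lung macrophages (SD, n = 5). The pore formers Bax and Bak1 together were at 67.3 ± 4.36, 131.5 ± 37.6 and 62.9 ± 8.67 CPM per kilobase in the same groups, and the BH3-only genes Bcl2l11 and Bid at 40.9 ± 1.06, 23.4 ± 6.74 and 11.7 ± 2.46. The ranges of the survival sum in monocytes (72.5 to 100.8) and in either macrophage type (463.7 or more) did not meet, and those of the BH3-only sum did not meet between any pair of the 3 WT cell types except SPMs and lung macrophages, where the lowest SPM library (13.3) was below the highest lung library (14.5).

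Bid, the BH3-only protein that links death receptors to mitochondria, fell stepwise from monocytes to SPMs to lung macrophages. It was at 135.7, 140.6, 140.1 and 147.2 CPM in WT monocytes and at 94.6, 88.9 and 90.3 CPM in WT SPM replicates 2 to 4, with replicate 1 at 39.8 CPM. In WT lung macrophages it was at 39.63, 29.47, 20.92, 29.97 and 41.12 CPM. Bid was 1.8-fold lower in SPMs than in monocytes (log2 -0.85, SE 0.26, adjusted p = 0.011), 4.37-fold lower in lung macrophages than in monocytes (log2 -2.13, SE 0.25, adjusted p = 7.86e-08) and 2.43-fold lower than in SPMs (log2 -1.28, SE 0.25, adjusted p = 8.4e-05). Its exons overlap those of Bcl2l13 on the opposite strand.

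Bcl2l11, whose product BIM starts death after loss of growth factors, was the other BH3-only gene and took another order. It was at 13.1, 8.38, 10.2 and 7.44 CPM in WT monocytes and at 17.04, 8.71, 6.37 and 9.27 CPM in WT SPMs, which overlapped (log2 difference 0.09, SE 0.28, adjusted p = 0.853). In WT lung macrophages it was at 17.5, 21.4, 17.5, 26.5 and 23.2 CPM. Lung macrophages were higher than monocytes by 1.12 on the log2 scale (SE 0.26, adjusted p = 0.000671) and higher than SPMs by 1.03 (SE 0.27, adjusted p = 0.00164).

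Bax was highest in SPMs on the TMM scale. WT SPM replicates 1 to 4 had 1492, 2297, 1640 and 3394 Bax reads among 17737414, 22100979, 12781144 and 29474570 counts. WT monocyte replicates 1 to 4 had 1925, 2009, 2443 and 2519 among 15450670, 17679191, 17977572 and 19155310. The higher level in SPMs therefore rests on the TMM factors, and levels without them were not compared. WT SPM replicates 2 to 4 held 212.7, 254.9 and 233.0 CPM and replicate 1 held 115.0 CPM, while WT monocytes held 96.3 to 111.6 CPM and WT lung macrophages 87.9 to 118.9 CPM. Bax was 1.98-fold higher in SPMs than in monocytes (log2 0.98, SE 0.21, adjusted p = 0.000508) and 2.11-fold lower in lung macrophages than in SPMs (log2 -1.08, SE 0.20, adjusted p = 5.04e-05). Between lung macrophages and monocytes its log2 difference was -0.09 (SE 0.20, adjusted p = 0.701). Bak1, the other pore former, was low everywhere, with group means of 4.46 CPM in WT monocytes, 5.01 in WT SPMs and 3.69 in WT lung macrophages, and it passed the threshold in no comparison of WT cell types. The standard errors of its log2 differences were 0.43 to 0.46. Exons of Bax overlap those of Gm45808 on the same strand, and exons of Bak1 those of Ggnbp1 on the opposite strand.

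Per kilobase the order of the 10 members in WT monocytes was led by Mcl1 (76.3 ± 13.7 CPM per kilobase, SD, n = 4), Bax (65.4 ± 4.47) and Bid (39.7 ± 1.34), and the gap between Mcl1 and Bax was smaller than the SD of Mcl1. In WT SPMs it was led by Bcl2a1d (363.5 ± 130.4, SD, n = 4), Bcl2a1a (193.4 ± 67.7), Bax (129.4 ± 39.2) and Mcl1 (97.2 ± 26.3), where Bcl2a1a and Bax, and Bax and Mcl1, lay closer than the larger SD of each pair. In WT lung macrophages Bcl2a1d (374.2 ± 101.6, SD, n = 5), Mcl1 (260.0 ± 43.7) and Bcl2a1a (215.0 ± 57.4) led, and the gap between Mcl1 and Bcl2a1a was smaller than the SD of Bcl2a1a. Bcl2 was the lowest member in WT monocytes (0.460 ± 0.131).

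Lung macrophages were the only cells taken from a tissue digested with enzymes at 37 °C. Of 16 genes known to respond to cell handling, such as the early response genes Fos and Egr1 and the heat shock genes Hspa1a and Hspa1b, all 16 were higher in lung macrophages than in monocytes and than in SPMs in WT mice, with median log2 fold changes of 4.09 and 5.05. Their summed level was 14300 to 34300 CPM in the lung libraries, 795 to 4180 in monocytes and 681 to 1320 in SPMs. Mcl1 and the Bcl2a1 copies are themselves genes that stimulation is known to induce, and the part of handling in the lung values was not tested.

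Markers of other cells also differed between libraries. The summed level of 10 neutrophil markers was 9950 to 71500 CPM in monocytes and 29.5 to 411 CPM in both macrophage types, with reads for all 10 markers in every group. S100a8 alone was at 2960 to 17600 CPM in the monocyte libraries. The monocyte gate was Ly6G negative, which should remove neutrophils, and the marker sum alone does not show that neutrophils were sorted. The part of neutrophil RNA in the cell type differences was not tested. The sum of 6 mast cell or basophil markers had WT medians of 24.5 CPM in monocytes, 1210 in SPMs and 40.6 in lung macrophages. For 7 dendritic cell markers these medians were 56.5, 1590 and 137 CPM, and for 7 B cell markers 510, 1220 and 647 CPM. The part of RNA of these cells in the levels of the Bcl2a1 copies was not tested. WT SPM replicate 1 had the highest Bcl2, Mcl1, Bcl2l1, Bcl2l11 and Bak1 of its group and the lowest Bid, Bax and Bcl2a1 copies. It also had the lowest sums of dendritic cell (247 CPM) and T cell markers (422 CPM, of which Cd2 held 284) of the WT SPM libraries. Among single markers it had the highest Ccr2 (2920 CPM), Csf1r (482), Itgam (387) and Mrc1 (293) of these libraries and the lowest Ly6c2 (27.0) and Cd226 (79.5). Without this library and WT lung replicates 3 and 5, 7, 7 and 6 members were called in the 3 WT comparisons.

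Lung libraries differed widely in epithelial RNA, and the levels of Bcl2 and Bcl2l1 are given beside it. The sum of 7 lung epithelial markers, led by surfactant genes such as Sftpc, was 14100, 8770, 6940, 4780 and 388 CPM in WT replicates 1 to 5 and 15900, 10300, 5650, 238 and 4460 CPM in ACKR2-/- replicates 1 to 5. Bcl2 was highest in WT replicate 5 (157.8 CPM) and ACKR2-/- replicate 4 (137.0 CPM), the libraries with the least epithelial RNA. Bcl2l1 was at 40.3 and 38.5 CPM in ACKR2-/- replicates 1 and 2, which had plentiful epithelial RNA, and at 12.7 CPM in ACKR2-/- replicate 5, 13.9 CPM in WT replicate 5 and 19.7 CPM in ACKR2-/- replicate 4. The part of epithelial RNA in these values was not tested.

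**Figure D3:**
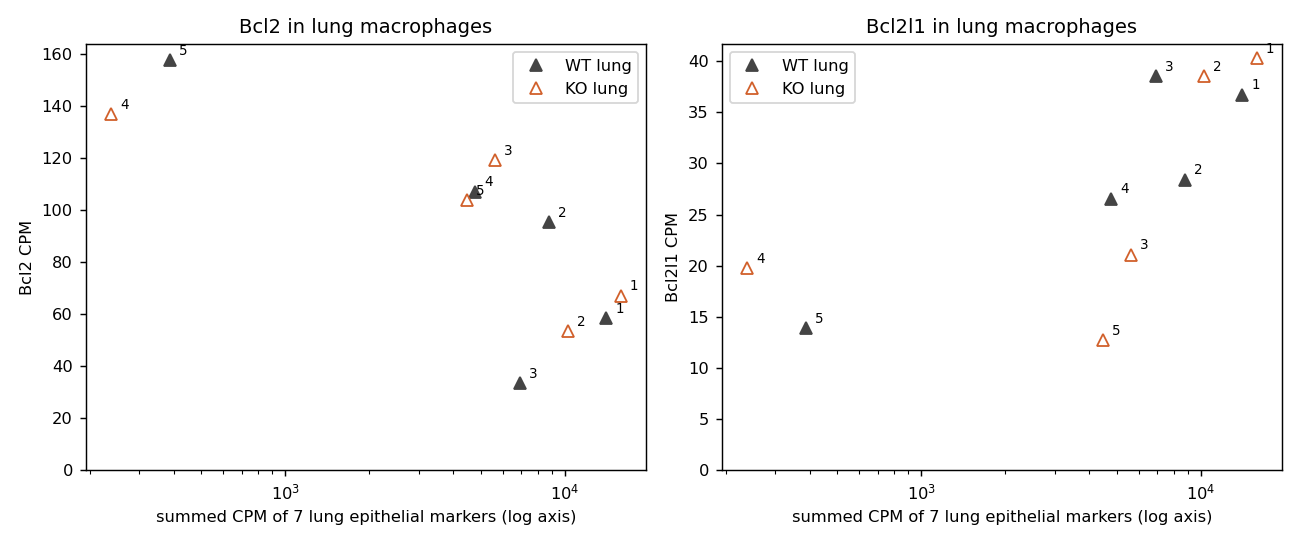
Bcl2 and Bcl2l1 (CPM) against the summed CPM of 7 lung epithelial markers (log axis) in the 10 lung libraries, numbered by replicate, WT filled and ACKR2-/- (KO) open. Bcl2 is highest in the libraries with 238 and 388 CPM of epithelial markers, and Bcl2l1 reaches 28.4 CPM or more only in libraries with 6940 CPM or more.

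The next question was whether loss of ACKR2 changed the members within a cell type. None of the 10 was called in monocytes, where 1.27% of 13246 tested genes were, in SPMs (0.0462% of 12997) or in lung macrophages (0% of 16824). At an unadjusted p under 0.05 the edgeR test held 3 members in monocytes (Bcl2, Bcl2l1 and Bcl2l11; 17% of all genes), 1 in SPMs (Bcl2; 5.46%) and 0 in lung macrophages (2.97%). DESeq2 called 1 member in monocytes, which was Bcl2, among 494 genes in all where edgeR called 168, and 0 in SPMs and lung macrophages, among 33 and 15 genes. The median log2 fold change of the members was -0.24 in monocytes, -0.18 in SPMs and 0.10 in lung macrophages, with 0.00, -0.05 and -0.04 for all tested genes.

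Bcl2 showed the largest genotype difference of the members in monocytes. The WT libraries held 3.40, 3.72, 5.99 and 3.72 CPM and the ACKR2-/- libraries 17.4, 6.87, 7.05 and 11.9 CPM. Every ACKR2-/- library was above every WT library, although replicates 2 and 3 lay close to the highest WT value. Over all tested genes, 4.31% were higher in ACKR2-/- monocytes with no overlap. The log2 fold change was 1.39 (SE 0.32, adjusted p = 0.0606, edgeR), or 2.62-fold, which missed the threshold. DESeq2 gave 1.40 with an adjusted p of 0.00158, and the edgeR test without a filter on low counts gave 1.37 with an adjusted p of 0.00479. Without ACKR2-/- replicate 2 or 3 the edgeR test also passed the threshold (adjusted p = 0.0393 and 0.0269). Without any other single library it did not (adjusted p from 0.065 to 0.205), nor with all 26 samples fitted together (adjusted p = 0.234). In edgeR, RLE size factors (adjusted p = 0.0623), a filter at 1 CPM (0.0672) and a robust fit (0.0697) also missed it. Without ACKR2-/- replicate 1, the library with the most Bcl2, the log2 fold change fell to 1.04 (adjusted p = 0.0961). That library also had Ly6c2 at 2450 CPM and Egr1 at 12.1 CPM. The other monocyte libraries had 3840 to 5090 and 0.392 to 2.56 CPM. An exact two-sided permutation test over the samples gave p = 0.029, the smallest that 4 against 4 samples allow, among 30 such tests of 10 members in 3 cell types.

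T cell markers rose in the same monocyte libraries. Of 10 T cell markers, 9 were called higher in ACKR2-/- monocytes, with a median log2 fold change of 4.31. Their sum was 3.4, 4.7, 3.17 and 4.3 CPM in the WT libraries and 81.3, 58.4, 84.0 and 104 CPM in the ACKR2-/- libraries. Cd3d, part of the T cell receptor complex, was at 0.4 to 0.738 CPM in WT and at 10.9 to 13.5 CPM in ACKR2-/- monocytes. Bcl2 is known to be well expressed in T cells. By Bcl2 the ACKR2-/- libraries ran replicates 1, 4, 3, 2, and by their T cell sum 4, 3, 1, 2, but 4 libraries are too few to compare such orders. Other markers called higher in ACKR2-/- monocytes were Ccr7 and Siglech of 6 dendritic cell markers tested, whose list summed to 43.2 to 60.2 CPM in WT and 52.4 to 130 CPM in ACKR2-/- libraries, and Jchain and Mzb1 of 4 plasma cell markers tested, at 357 to 415 and 386 to 467 CPM. The part of T cell or other RNA in the Bcl2 difference was not tested. Of the same 10 markers, 0 were called in SPMs and 0 in lung macrophages.

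**Figure D4:**
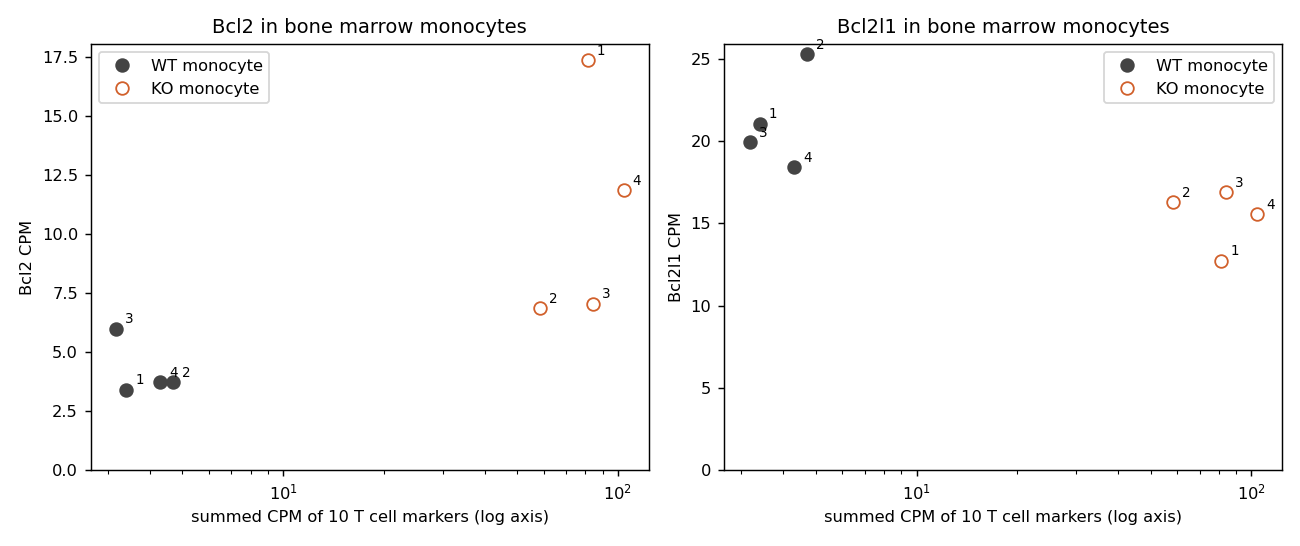
Bcl2 and Bcl2l1 (CPM) against the summed CPM of 10 T cell markers (log axis) in the 8 monocyte libraries, numbered by replicate, WT filled and ACKR2-/- (KO) open. The genotypes separate on both axes, with 3.17 to 4.7 CPM of T cell markers in WT and 58.4 to 104 CPM in ACKR2-/- libraries.

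Bcl2l1 was the other member whose genotypes did not overlap in monocytes, and it was lower in ACKR2-/- mice. WT libraries held 21.1, 25.3, 19.9 and 18.4 CPM and ACKR2-/- libraries 12.7, 16.3, 16.9 and 15.6 CPM. Over all tested genes, 6.26% were lower with no overlap. The log2 fold change was -0.44 (SE 0.14, adjusted p = 0.138, edgeR), short of the threshold in size and in adjusted p, and the exact two-sided permutation test gave p = 0.029, again the smallest possible. Together 2 of the 10 members did not overlap between genotypes in monocytes, where 10.6% of all genes did not.

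The genotypes of the other 8 members overlapped in monocytes. Mcl1 was at 285.2, 196.0, 303.0 and 258.9 CPM in WT and at 166.4, 163.5, 260.6 and 244.2 CPM in ACKR2-/- libraries, which overlapped (log2 -0.30, SE 0.19, adjusted p = 0.441). Bcl2l11 was at 7.44 to 13.1 CPM in WT and at 6.14 to 8.44 CPM in ACKR2-/- monocytes (log2 -0.45, SE 0.20, adjusted p = 0.282). The log2 fold changes of Bax, Bak1 and Bid were 0.17, 0.22 and -0.02, and those of the Bcl2a1 copies lay between -0.28 and -0.20 with standard errors of 0.25 to 0.40.

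In SPMs no member separated the genotypes, and 3.33% of all tested genes did. Bcl2 was at 35.9, 18.2, 17.9 and 18.1 CPM in WT and at 10.1, 12.4, 20.7 and 12.4 CPM in ACKR2-/- libraries, so that ACKR2-/- replicate 3 was above 3 WT libraries. Its log2 fold change was -0.79 (SE 0.33, adjusted p = 0.788). Bak1 had a log2 fold change of -0.60 (SE 0.50, adjusted p = 0.797), which rested on WT replicate 1 at 10.7 CPM against 2.18 to 3.98 CPM in the other WT libraries, and was 0.17 without it. The summed Bcl2a1 copies had -0.33 (SE 0.25, adjusted p = 0.788). The other 5 members that are no Bcl2a1 copy lay between -0.22 and 0.40.

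In lung macrophages the genotypes also overlapped for all 10 members, where 0.479% of all tested genes did not. Bcl2 was at 58.4, 95.4, 33.4, 107.2 and 157.8 CPM in WT and at 67.1, 53.5, 119.2, 137.0 and 103.8 CPM in ACKR2-/- libraries (log2 0.09, SE 0.39, adjusted p = 1). Mcl1 had a log2 fold change of -0.02 (SE 0.18) and the summed Bcl2a1 copies 0.17 (SE 0.24). Bak1 had the largest value, 0.65 (SE 0.45, adjusted p = 1), with ACKR2-/- replicate 5 at 11.5 CPM and the other 9 libraries at 1.43 to 5.86 CPM.

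**Figure D5:**
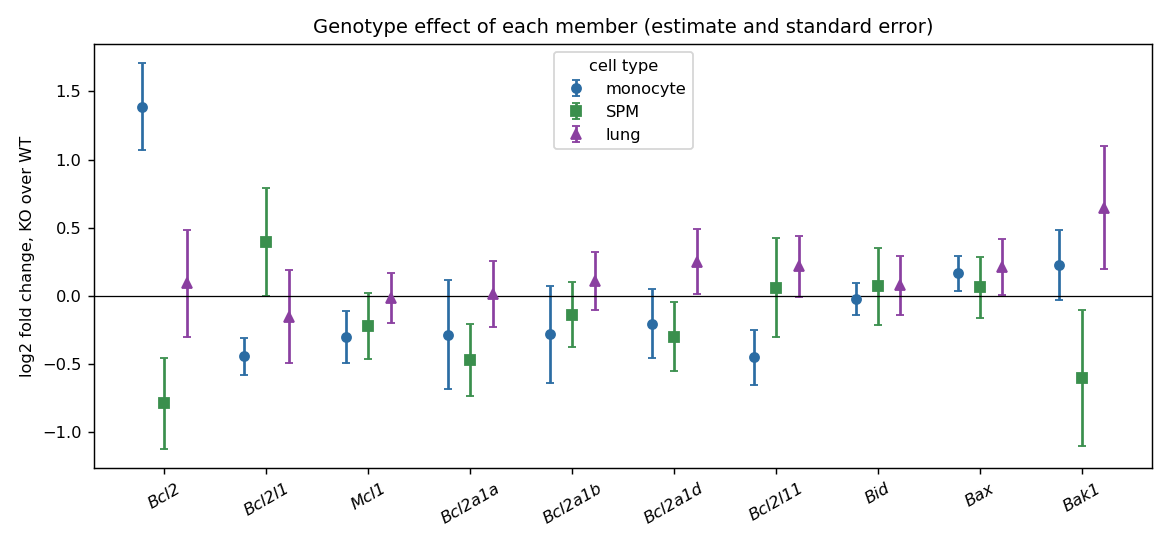
Log2 fold change of ACKR2-/- (KO) over WT with its standard error for each member in monocytes, SPMs and lung macrophages (edgeR). Bcl2 in monocytes (1.39) lies farthest from 0, Bcl2 in SPMs is below 0 (-0.79), and no estimate passed the adjusted threshold.

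Whether the genotype effect itself differed between cell types was tested in the fit of all 26 samples. No member was called, where 0.253% of all genes were between monocytes and SPMs, 0.152% between monocytes and lung macrophages and 0.0393% between SPMs and lung macrophages. At an unadjusted p under 0.05 the edgeR test held 1, 1 and 0 members in these comparisons, Bcl2 both times, against 7.46%, 6.07% and 6.15% of all genes, and DESeq2 called 1, 0 and 0, among 130, 109 and 22 genes in all. For Bcl2 the effect was lower in SPMs than in monocytes by 2.05 on the log2 scale (-2.05, SE 0.57, adjusted p = 0.193), where DESeq2 gave -2.14 with an adjusted p of 0.0248. Its difference was -1.27 (SE 0.53, adjusted p = 0.723) between monocytes and lung macrophages and 0.78 (SE 0.52, adjusted p = 0.847) between SPMs and lung macrophages. Of the 10 T cell markers, 9 were called with a lower genotype effect in SPMs than in monocytes. In lung macrophages 9 were also called lower than in monocytes. The part of T cell RNA in the Bcl2 differences was not tested.

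The comparison of SPMs with monocytes was repeated in ACKR2-/- mice. Bcl2 did not differ there beyond its spread (log2 0.37, SE 0.39, adjusted p = 0.489), with 6.87 to 17.4 CPM in monocytes and 10.1 to 20.7 CPM in SPMs. Bcl2l1 was lower in SPMs by 0.96 on the log2 scale (-0.96, SE 0.35, adjusted p = 0.0306) and Bid by 0.68 (-0.68, SE 0.26, adjusted p = 0.0396), while Bcl2l11 was higher by 0.71 (SE 0.28, adjusted p = 0.0415). The calls of these 3 genes were close to the threshold, and each was lost when any of 5 or 6 single libraries was left out. Mcl1, with 0.53 (SE 0.22, adjusted p = 0.0551), was just short of it, and passed with DESeq2 (0.63, adjusted p = 0.00567), with RLE size factors (0.63, adjusted p = 0.017) and with ACKR2-/- samples alone (0.54, adjusted p = 0.0456). Between lung macrophages and monocytes Bcl2 was higher by 3.15 (SE 0.41, adjusted p = 3.76e-07) and Mcl1 by 2.08 (SE 0.22, adjusted p = 1.4e-08), and Bid was lower (-1.99, SE 0.25, adjusted p = 2.25e-07).

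The rest of the pathway was described from fixed lists. Of 16 further BCL2 family genes, 12 could be tested between cell types. In WT mice 2 were higher and 2 lower in SPMs than in monocytes, against 41.9% of all genes called in either direction. They were led by Bcl2l13 (log2 -1.59, SE 0.23, adjusted p = 2.58e-06) and by Bad, a BH3-only gene (log2 1.21, SE 0.27, adjusted p = 0.000632). In lung macrophages 4 were higher and 1 lower than in monocytes, against 63.8% of all genes. Bok, a relative of the pore formers, had 0 reads in the WT monocyte libraries and 4.01 ± 2.0 CPM (SD, n = 5) in WT lung macrophages, at least 115-fold higher when 3 reads over the whole monocyte group are taken as the floor. Bik, a BH3-only gene, was at 0.0783 ± 0.0648 CPM in WT monocytes and 2.88 ± 2.15 CPM in WT lung macrophages. None of the 16 was called between genotypes in any cell type.

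Of 18 genes of the mitochondrial caspase pathway, 4 were higher and 7 lower in WT SPMs than in WT monocytes, and 5 were higher and 10 lower in lung macrophages than in monocytes, beside 41.9% and 63.8% of all genes, with median log2 fold changes of -0.03 and -0.57 (all tested genes 0 and 0.34). Birc5 (survivin), which dividing cells express, was at 415 ± 65.2 CPM in WT monocytes (SD, n = 4), 34.8 ± 19.4 in SPMs (SD, n = 4) and 9.63 ± 10.9 in lung macrophages (SD, n = 5). Endog, a mitochondrial nuclease, was higher than in monocytes by 2.37 (SE 0.26) in SPMs and by 2.09 (SE 0.25) in lung macrophages. Cycs, which encodes cytochrome c, was lower in lung macrophages than in SPMs (log2 -2.55, SE 0.26, adjusted p = 5.42e-09) and Htra2 was higher (log2 2.95, SE 0.34, adjusted p = 4.6e-08).

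Of 16 death receptor genes, 1 was higher and 5 lower in WT SPMs than in monocytes, and 7 were higher and 4 lower in lung macrophages than in monocytes, near the 41.9% and 63.8% of all genes called. Tnf, a ligand of death receptors that handling can induce, was at 6.43 ± 1.32 CPM in WT monocytes (SD, n = 4), 1.53 ± 0.886 in SPMs (SD, n = 4) and 128 ± 65.5 in lung macrophages (SD, n = 5). Fasl, a ligand made mainly by T and NK cells, was at 0.025 ± 0.05 CPM in WT monocytes, 1.03 ± 0.817 in SPMs and 9.74 ± 3.95 in lung macrophages. No gene of the pathway lists was called between genotypes. The T cell marker sums were 422 to 903 CPM in SPMs and 81 to 499 CPM in lung macrophages of both genotypes. Of these, Cd2 alone held 211 to 608 CPM in SPMs. The sums of 7 NK cell markers were 64.7 to 352 CPM in SPMs and 164 to 2140 CPM in lung macrophages of both genotypes. The part of T or NK cell RNA in the Fasl values was not tested.

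Of 16 known regulators of the family, 3 were higher and 5 lower in WT SPMs than in monocytes, 8 higher and 1 lower in lung macrophages than in monocytes, and 10 higher and 2 lower in lung macrophages than in SPMs, beside 41.9%, 63.8% and 62.3% of all genes. Cdkn1a, a p53 target, was higher than in monocytes by 1.75 (SE 0.26) in SPMs and by 3.47 (SE 0.27) in lung macrophages. Csf1r, the receptor of the macrophage growth factor, was higher by 2.53 (SE 0.35) in lung macrophages than in monocytes. Rela, an NF-kappaB subunit of the kind that induces A1, was at 73.1 ± 5.71 CPM in WT monocytes, 42.6 ± 10.8 in SPMs and 162 ± 26 in lung macrophages. It was lower in SPMs than in monocytes (log2 -0.78, SE 0.20, adjusted p = 0.00249). The part of Rela in the levels of the Bcl2a1 copies was not tested. Mitf was higher in SPMs than in monocytes by 1.75 (SE 0.41) and lower in lung macrophages than in SPMs (log2 -2.57, SE 0.39). Of the handling genes, Btg2 was higher in ACKR2-/- SPMs by 1.94 on the log2 scale (SE 0.27, adjusted p = 0.0433).

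For 3 survival genes the genes with the most similar pattern over the 6 group means were sought among 7879 genes with at least 10 CPM on average, as a description. Bcl2 was closest to Fyn, Heg1 and Snhg15, with root mean square differences of 0.25, 0.279 and 0.295 on the log2 scale after centring each gene. Bcl2l1 was closest to B4galt3 (0.0979), Cyb561a3 (0.102) and Uba7 (0.112). Mcl1 was closest to Il4ra (0.101), Lrrc8c (0.107) and Asph (0.112).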

How the data were processed

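Raw counts per gene, as deposited, were used for all 26 samples. Per the labels, the authors mapped paired reads to mm10 with HISAT2 2.0.5 and counted them with featureCounts 1.5.0-p3. The lung table ends with 5 summary lines of the kind another counter writes (56.3% of its counts, including 5.4% to 6.18% in each library for reads without a unique place), which were left out. Strand use was not given in the sources used here. edgeR 4.0.16 (R 4.3.3) was run with filterByExpr, TMM factors and the quasi-likelihood test with Benjamini-Hochberg adjustment. Genotypes were compared within each table, and cell types and genotype effect differences in 1 fit of all 26 samples. Standard errors are the log2 fold change divided by the root of F. Nothing in the labels says that samples came from separate sorts, so p-values measure the spread between these samples. Of any 2 replicates, none were identical. DESeq2 1.42.0, scaling, filters and left-out libraries were alternatives. The named genes were the 10 members, Ackr2, list genes called between genotypes and the 2 with the largest called change per list and WT comparison. Members and lists were chosen with earlier results of these data known. The tests were tested on simulated data.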

Additional observations from a re-analysis of the deposited data

Results flagged for a closer look

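Of 60 groups of a member's CPM, 7 held a library far from the others by Dixon's test, and chance gives about 1 in 20. Bcl2 was at 5.99 CPM in WT monocyte replicate 3 and at 35.9 CPM in WT SPM replicate 1, which also held Bid at 39.8 CPM. Bcl2a1a was at 1.48 CPM in WT monocyte replicate 3. Bax was at 119 CPM in the library labelled WT lung replicate 5, which had no Ackr2 reads. Bak1 was at 8.57 CPM in ACKR2-/- monocyte replicate 2 and at 11.5 CPM in ACKR2-/- lung replicate 5.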

How the results depend on the processing

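All 20 calls of members between WT cell types kept their direction under every alternative run, and those of Bid and Bax between SPMs and monocytes ended only when an absolute log2 fold change over 1 was required. Under that limit SPMs and monocytes of ACKR2-/- mice differed in 3 members in place of 7. At the usual limit they differed in 4 to 6 when 1 library was left out (4 without ACKR2-/- monocyte replicate 4 or SPM replicate 1). In monocytes 1 member, Bcl2, was called between genotypes by DESeq2 and without the low count filter, and 0 to 1 when 1 library was left out. DESeq2 also called 1 member, Bcl2, for the genotype effect difference between monocytes and SPMs. The other counts of members stayed within 1.5 times, with 7 to 8 for lung macrophages against monocytes and 6 to 7 against SPMs in ACKR2-/- mice when 1 library was left out. The ACKR2-/- call of Bcl2l1 between lung macrophages and monocytes (adjusted p = 0.0416) was also lost without several single libraries. Over all genes, the monocyte count of 168 became 494 with DESeq2, 346 without a filter and 76 to 413 with 1 library left out (76 to 99 without any WT library or ACKR2-/- replicate 4, 413 without ACKR2-/- replicate 3). The SPM count of 6 became 33, 52 and 3 to 8 (3 without ACKR2-/- replicate 2), and the lung count of 0 became 15 with DESeq2 and 1 in the fit of all samples. The counts of genotype effect differences (45 for monocytes and SPMs, 27 for monocytes and lung, 7 for SPMs and lung) became 130, 109 and 22 with DESeq2 and 29 to 57 (29 without WT monocyte replicate 1), 13 to 53 (13 to 15 without WT monocyte replicate 1, 2 or 3, 53 without WT lung replicate 5) and 4 to 7 (4 without WT SPM replicate 3 or ACKR2-/- SPM replicate 1) with 1 library left out, and for monocytes and lung 42 without a filter. Deviations of same-numbered samples had correlations from -0.135 to 0.689, over 0.1 for 2 of 4 monocyte, 0 of 4 SPM and 2 of 5 lung pairs. Differently numbered samples were not compared, so whether the numbers pair samples was not settled. The main fits used no pairing. With the replicate number as a block the count for monocytes against lung was 17, Bcl2 in monocytes had a log2 fold change of 1.30 (adjusted p = 0.0738), Bcl2l1 between lung macrophages and monocytes of WT mice passed (0.63, adjusted p = 0.0489) and Bcl2l11 and Bid between SPMs and monocytes of ACKR2-/- mice did not (adjusted p = 0.0506 and 0.0575); no other call of a member changed.

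Signs changed only among values that were not called. Under DESeq2 and RLE size factors Mcl1 in the lung became 0.0039 and 0.0039 and Bcl2a1d between lung macrophages and SPMs -0.093 and -0.093. Under the replicate block the latter became -0.0195 and Bcl2a1a in the lung -0.016, and with the copies summed Bcl2a1b between lung macrophages and SPMs became 0.0475. Without the 3 WT libraries that stood apart, chosen after seeing the data, the SPM genotype effects became 0.0277 (Mcl1), -0.12 (Bid), -0.11 (Bax) and 0.17 (Bak1), Mcl1 in the lung 0.0176, SPMs against monocytes -0.26 (Bcl2l11) and -0.50 (Bak1), and lung macrophages against SPMs -0.14 (Bcl2a1a), -0.22 (Bcl2a1d) and 0.24 (Bak1). With 1 library left out, genotype effects in monocytes ranged from -0.54 to 0.0147 (Bcl2a1a), -0.0822 to 0.0471 (Bid) and -0.10 to 0.33 (Bak1); in SPMs from -0.35 to 0.0277 (Mcl1), -0.28 to 0.0231 (Bcl2a1b), -0.11 to 0.48 (Bcl2l11), -0.12 to 0.21 (Bid), -0.11 to 0.19 (Bax) and -0.83 to 0.17 (Bak1); in the lung from -0.0929 to 0.41 (Bcl2), -0.33 to 0.0208 (Bcl2l1), -0.0846 to 0.0877 (Mcl1), -0.12 to 0.17 (Bcl2a1a) and -0.0883 to 0.20 (Bid). Between WT cell types they ranged from -0.26 to 0.26 (Bcl2l11, SPMs against monocytes), -0.51 to 0.41 (Bak1, the same), -0.0655 to 0.32 (Bcl2a1a, lung against SPMs), -0.17 to 0.24 (Bcl2a1d) and -0.68 to 0.23 (Bak1). The causes were not tested. A count of 0 allows up to 3 reads, or 0.0847 to 0.235 CPM by library.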
